A study of Homo sapiens with 32 samples.

Results

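RN-1 and GSK690 are inhibitors of the histone demethylase KDM1A. In the words of the study's design, RN-1 acts irreversibly and GSK690 reversibly. Their transcriptional effects were set against each other in 16 of the 32 RNA-seq libraries of the series, chosen by title: 8 from cells given RN-1 and 8 from cells given GSK690. Of these, 4 RN-1 and GSK690 libraries (2 of each) came from each of 4 sets of cell line and time, namely Kasumi-1 at 24 h, Kasumi-1 at 72 h, SKNO-1 at 24 h and SKNO-1 at 72 h. Both lines are established human acute myeloid leukaemia lines with the t(8;21) fusion of RUNX1 and RUNX1T1, and each stands for 1 patient's leukaemia. Both compounds were used at 1 µM, so doses and times match within each set and the study has 1 pair of active compounds to compare. The other 16 libraries are the controls. They had either 0.1% DMSO, the vehicle, or GSK690*, an isomer of GSK690 that the labels describe as inactive. Kasumi-1 grew with 20% fetal calf serum, and SKNO-1 with 10% serum and 10 ng/mL GM-CSF, a myeloid growth factor, whatever the agent. The later SKNO-1 libraries are titled 72 h, although 4 days of treatment are described for that line, and 72 h is used here.

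KDM1A removes methyl groups from lysine 4 of histone H3 with a flavin cofactor. It works within the CoREST complex, where RCOR1 and HMG20B are subunits, and it is brought to chromatin by the repressors GFI1 and GFI1B. In myeloid leukaemia cells its inhibition is known to raise genes of monocytes and macrophages, among them CD86, ITGAM and LYZ. An irreversible inhibitor stays bound to the enzyme until new enzyme is made, whereas a reversible one can leave again. With 1 pair of compounds, both at 1 µM, the way of binding cannot be told apart from other differences between RN-1 and GSK690. The 2 compounds, not the 2 kinds, can be compared for how far, and on which genes, their effects differ.

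Levels are in FPKM, fragments per gene scaled to gene length and to the mapped fragments of the library. FPKM summed to 332648 to 388365 per library, 10688 to 10970 genes reached 1 FPKM, and the 10 most abundant genes held 2.87% to 8.0% of the sum. The depth is unknown, since the values are not counts. RUNX1T1 lay at 32.5 to 51.7 FPKM in the Kasumi-1 libraries and 21.2 to 31.0 in the SKNO-1 libraries. The authors' own sample table names the other line for 16 libraries at 72 h, and the labels were followed. By the labels, inhibitor libraries at 72 h correlated across genes at 0.974 to 0.985 with their own line at 24 h and at 0.848 to 0.868 with the other line. RN-1 replicate 1 of Kasumi-1 at 72 h stood apart. Its root mean square distance over 11862 genes, on the log2(FPKM + 1) scale, was 0.312 to RN-1 replicate 2 and 0.291 and 0.335 to the GSK690 libraries, whereas the other distances among these 4 libraries were 0.157 to 0.187. The replicates of SKNO-1 at 24 h were also far apart, at 0.318 for RN-1 and 0.283 for GSK690.

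No gene separated RN-1 from GSK690 past the threshold across the 8 against 8 libraries. Of 11890 genes tested with line and time as blocks, 0 (0.0%) had an adjusted p under 0.05 (limma with Benjamini-Hochberg adjustment), and 228 genes (1.92%) had an unadjusted p under 0.05. The smallest adjusted p was 0.653. Differences are given as RN-1 minus GSK690 on the log2(FPKM + 1) scale, which understates the change of genes near or below 1 FPKM. They ran from -0.69 to 0.59 over all tested genes, with the central 98% between -0.17 and 0.18. On this scale, the 95% interval of the difference lay within 1.5-fold in either direction for 11802 genes (99.3%) and within 2-fold for 11876 genes (99.9%). For comparison, libraries of RN-1 and GSK690 with the same replicate number in a set were 0.144 to 0.291 apart by the distance above, libraries of the 2 compounds with different numbers 0.178 to 0.335, replicates of 1 compound 0.183 to 0.318, and a compound and its control 0.246 to 0.420. The ranges between compounds and between replicates overlapped, and some pairs of compounds with the same number were closer than any pair of replicates.

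The targeted enzyme and its partners were at like levels with both compounds. KDM1A (ENSG00000004487, chromosome 1, 23345940 to 23410182, hg19) has a value in 10 of the 16 libraries, 5 per compound, and the fit drops the others. It lay at 60.9 to 71.3 FPKM with RN-1 (median 66.2) and 61.1 to 79.8 with GSK690 (median 68.3), which overlap, and the difference was -0.02 (95% interval -0.16 to 0.11). KDM1B, the other lysine-specific demethylase of this family, lay at 7.93 to 14.3 FPKM with RN-1 (median 11.6) and 7.29 to 14.0 with GSK690 (median 11.6). Its difference was -0.0087 (interval -0.14 to 0.12). The flavin monoamine oxidases MAOA and MAOB, which belong to the same enzyme family, did not pass the filter on low values and reached at most 0.423 and 0.193 FPKM in any library. RCOR1 differed by -0.03 (interval -0.16 to 0.09) and HMG20B by 0.07 (interval -0.14 to 0.28). GFI1 lay at 118 to 211 FPKM with RN-1 (median 164) and 125 to 230 with GSK690 (median 174), both ranges overlapping, and differed by -0.07 (interval -0.17 to 0.04). Over the 21 tested genes of the KDM1A and CoREST list, the median difference was -0.023 beside 0.0049 over all tested genes, with 9 higher with RN-1 and 12 higher with GSK690.

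GFI1B showed the widest interval among the named genes. In SKNO-1 at 24 h it stood at 17.0 FPKM in RN-1 replicate 1 and 1.53 in replicate 2, and at 17.3 and 1.94 in the GSK690 replicates. At 72 h the values were 16.2 and 10.3 FPKM with RN-1 and 21.6 and 11.8 with GSK690. In both sets replicate 1 was the higher library for each compound. In Kasumi-1 the inhibitor libraries did not exceed 0.401 FPKM. The difference between compounds was -0.15 with an interval of -0.89 to 0.60, so that a difference of either sign could not be told from none.

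CD86 (ENSG00000114013, chromosome 3, 121774212 to 121839983, hg19), a costimulatory ligand of antigen-presenting cells, was the 1 gene called in a set. In Kasumi-1 at 72 h its 2 RN-1 libraries stood at 1.73 and 1.34 FPKM and its 2 GSK690 libraries at 3.90 and 3.35 FPKM. In Kasumi-1 at 24 h the values were 4.25 and 4.78 FPKM with RN-1 and 5.10 and 5.72 with GSK690. In SKNO-1 they were 3.70 and 5.55 against 6.54 and 7.07 FPKM at 24 h, and 6.17 and 5.73 against 7.15 and 7.80 at 72 h. The GSK690 libraries lay above the RN-1 libraries without overlap in each of the 4 sets, and the 16 control libraries, at 0.0705 to 1.32 FPKM, lay below all of them.

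The difference in CD86 at 72 h in Kasumi-1 was -0.87 (SE 0.13, 95% interval -1.14 to -0.59, limma adjusted p = 0.0196). It was the only call in that set, 1 of 11889 genes (0.00841%). Over the 4 sets together the difference was -0.47 (SE 0.092, interval -0.66 to -0.27), but its adjusted p was 0.653. Against their own controls both compounds raised CD86, by 1.70 for RN-1 over DMSO (adjusted p = 3.57e-14) and 2.10 for GSK690 over GSK690* (adjusted p = 1.3e-15). The call in Kasumi-1 at 72 h ended, at a difference of like size, without RN-1 replicate 1 (-0.98, adjusted p = 0.0631) and without GSK690 replicate 1 (-0.78, adjusted p = 0.802) or replicate 2 (-0.95, adjusted p = 0.0908). It also ended with quantile normalization (-0.85, adjusted p = 0.160), a pseudocount of 0.1 (-1.19, adjusted p = 0.399) and the spread taken from the 16 inhibitor libraries alone (-0.87, adjusted p = 0.643). The adjusted p ran from 0.00223 to 0.802 over the alternatives. Over the 4 sets, CD86 and FCRLA passed when the spread was taken from all 32 libraries (adjusted p = 0.00698 and 0.00866), FCRLA having entered the test through GSK690 libraries alone.

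**Figure D1:**
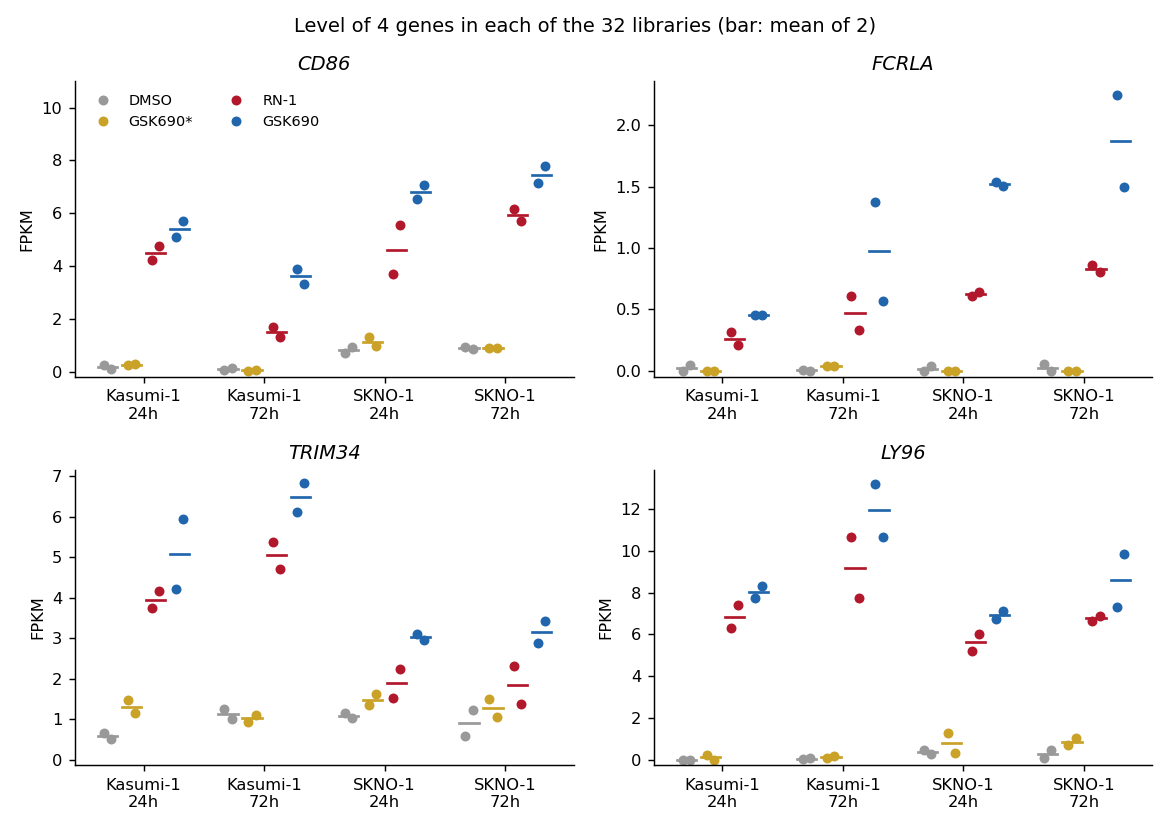
FPKM of CD86, FCRLA, TRIM34 and LY96 (y axis) in each of the 32 libraries, by set of line and time (x axis), with points for the 2 replicates of each agent and a bar for their mean. In CD86 the 2 RN-1 libraries of Kasumi-1 at 72 h, at 1.73 and 1.34 FPKM, lie below the GSK690 libraries at 3.90 and 3.35, and its control libraries reach at most 1.32.

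FCRLA, which encodes an Fc receptor-like protein of B lineage cells, had the smallest unadjusted p over the 4 sets. It reached 1 FPKM in GSK690 libraries only, so it passed the filter on low values through the group in which it is high, and its p is no independent support for that order. The RN-1 libraries stood at 0.315 and 0.207 FPKM in Kasumi-1 at 24 h and 0.606 and 0.337 at 72 h, and the GSK690 libraries at 0.458 and 0.454, and 1.38 and 0.571. In SKNO-1 RN-1 gave 0.606 and 0.643 FPKM at 24 h and 0.858 and 0.805 at 72 h, and GSK690 1.54 and 1.5, and 2.25 and 1.49. The compounds overlapped in Kasumi-1 at 72 h and not in the other 3 sets. FCRLA is listed at 0 in 10 of the 16 control libraries and at no more than 0.0525 FPKM in the others. The difference was -0.47 (SE 0.092, interval -0.66 to -0.28, adjusted p = 0.653) with all 4 sets of the same sign.

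TRIM34, a member of the tripartite motif family of ubiquitin ligases, differed by -0.41 (SE 0.086, interval -0.59 to -0.23, adjusted p = 0.764). Its mean was 3.19 FPKM with RN-1, 4.44 with GSK690 and 1.10 in the controls, and the compounds did not overlap in any of the 4 sets. Its span on chromosome 11 (5640993 to 5665628, hg19) lies within that of the read-through gene TRIM6-TRIM34 in the deposited annotation, so reads may be split between them and its level is uncertain. LY96, the co-receptor that lets TLR4 sense lipopolysaccharide, lay at 5.21 to 10.7 FPKM with RN-1 (median 6.78) and 6.72 to 13.2 with GSK690 (median 8.04). Within sets the GSK690 libraries lay above the RN-1 libraries in 3 of 4, and the difference was -0.28 (interval -0.43 to -0.12). Against their own controls the order was not kept: LY96 rose by 2.78 with RN-1 and 2.77 with GSK690. GPR65, a proton-sensing receptor of leukocytes, differed by -0.26 (interval -0.42 to -0.10), also without overlap in 3 of 4 sets, and its sign turned against the own controls (0.11). FCRLA, TRIM34, LY96 and GPR65 were picked for a small p on the same values, so their lack of overlap adds no separate support. In a single set, 18.0% (SKNO-1 at 72 h) to 33.4% (Kasumi-1 at 72 h) of all tested genes did not overlap. The share of all genes without overlap in 3 of 4 sets was not computed. CD86, FCRLA, TRIM34, LY96 and GPR65 were all among the genes raised by the 2 inhibitors together, by 0.83 (FCRLA) to 2.78 (LY96) over the controls.

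The other 5 of the 10 genes with the smallest p were higher with RN-1, and none passed the threshold (adjusted p = 1.00 in each). PARP3, an ADP-ribosyltransferase of DNA break repair, had a mean of 6.25 FPKM with RN-1 and 5.14 with GSK690, a difference of 0.26 (interval 0.12 to 0.40). PLA2G12A, a secreted phospholipase A2, had means of 8.84 and 7.39 FPKM and a difference of 0.23 (interval 0.093 to 0.37). CD300LF, an inhibitory receptor of myeloid cells, had means of 11.6 and 9.91 FPKM and a difference of 0.20 (interval 0.086 to 0.31). SPATA33 differed by 0.20 (interval 0.085 to 0.32). ZHX1-C8ORF76 differed by 0.25 (interval 0.11 to 0.39), and since it is a read-through of 2 neighbouring genes its reads are shared with them. PLA2G12A was the 1 of these whose RN-1 libraries lay above the GSK690 libraries in all 4 sets.

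Of the genes followed, KCTD12, MS4A4A and ITGAM rose with both compounds. The genes followed were chosen with earlier results of these data known, so their rises are no independent support for a response. KCTD12, an auxiliary subunit of GABA-B receptors, had means of 14.7 FPKM with RN-1 and 17.2 with GSK690 beside 1.51 in the controls. It rose by 2.39 with RN-1 (adjusted p = 3.56e-16) and by 2.63 with GSK690 (adjusted p = 4.72e-17) over their own controls, and the compounds differed by -0.16 (interval -0.31 to -0.014, adjusted p = 1.00). MS4A4A, a membrane protein of macrophages, rose by 2.43 with each compound, and the direct difference was -0.13 (interval -0.38 to 0.12). ITGAM, the integrin chain CD11b, rose by 1.17 with each, and the direct difference was -0.21 (interval -0.57 to 0.14). At 24 h alone its rise passed the threshold with neither compound in either line.

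LYZ, which encodes lysozyme, changed order when each compound was read against its own control. Its levels were 53.9 to 134 FPKM with RN-1 and 69.2 to 152 with GSK690, with means of 97.2 and 114, and the direct difference was -0.24 (interval -0.45 to -0.025, adjusted p = 1.00). Against their own controls, however, LYZ rose by 2.26 with RN-1 (adjusted p = 8.83e-12) and by 1.81 with GSK690 (adjusted p = 4.5e-10). LYZ was also higher with GSK690* than with DMSO, by 0.69 (adjusted p = 0.0241), and it was 1 of 7 genes (0.0589%) that GSK690* raised over DMSO over the 4 sets, with 0 lowered.

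PI16, a peptidase inhibitor gene, responded in 1 line. In Kasumi-1 it stood at 4.41 and 7.95 FPKM with RN-1 and 5.39 and 5.78 with GSK690 at 24 h, and at 19.2 and 14.3 against 15.1 and 15.0 at 72 h. In SKNO-1 it did not exceed 0.287 FPKM with either compound. The difference between compounds was 0.03 (interval -0.17 to 0.23), and their libraries overlapped in every set. CD34, a marker of stem and progenitor cells, lay at 107 to 245 FPKM in the inhibitor libraries of Kasumi-1 and 0.696 to 4.64 in those of SKNO-1. It rose by 1.29 with RN-1 and 1.06 with GSK690 over their controls, and the direct difference was 0.01 (interval -0.33 to 0.36).

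KIT, the receptor of stem cell factor, fell with both compounds. Its levels were 56.2 to 239 FPKM with RN-1 (median 127) and 59.4 to 219 with GSK690 (median 122). It fell by 0.42 with RN-1 (adjusted p = 2.24e-04) and fell by 0.35 with GSK690 (adjusted p = 0.00141), and the compounds differed by 0.0085 (interval -0.15 to 0.17). The myeloid transcription factor SPI1 was high throughout, with medians of 75.5 FPKM with RN-1 and 66.3 with GSK690, and differed by 0.07 (interval -0.08 to 0.21). CEBPA, another myeloid factor, was low and variable, with RN-1 values of 4.06 and 0.300 FPKM in the 2 replicates of SKNO-1 at 24 h, and its interval ran from -0.45 to 0.64.

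**Figure D2:**
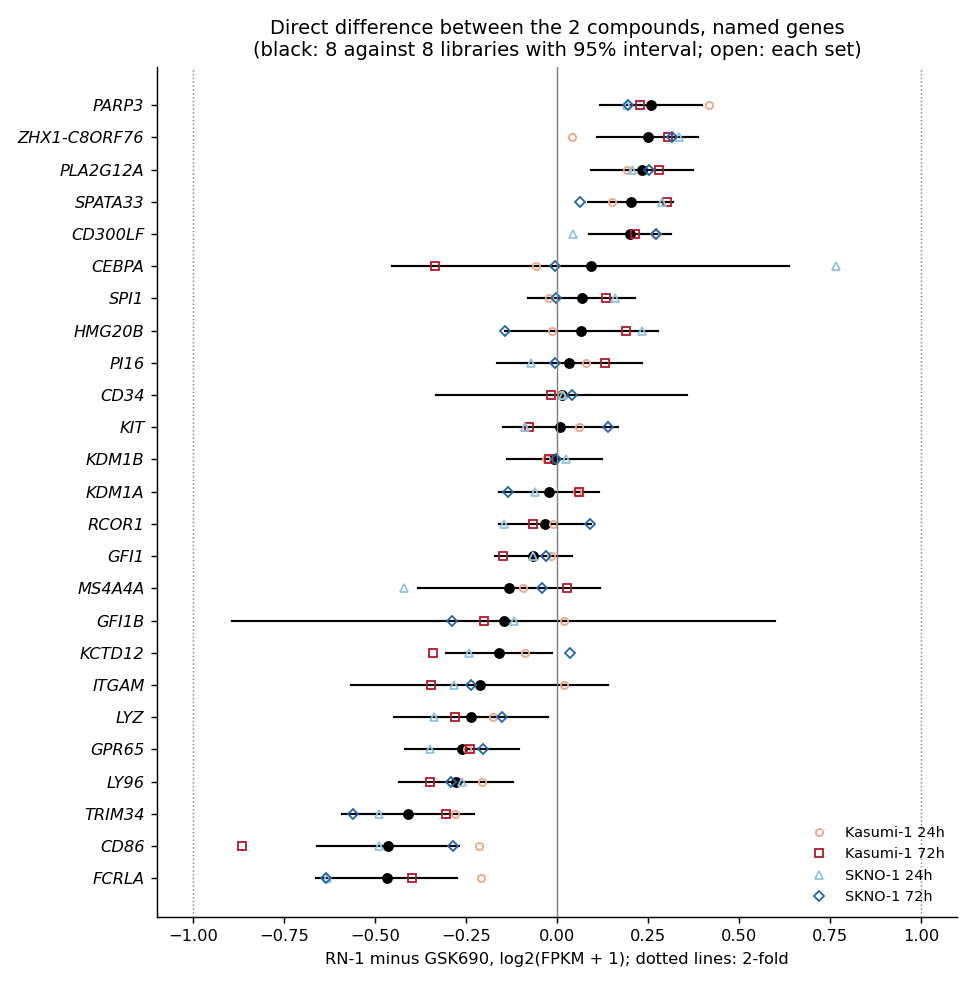
RN-1 minus GSK690 on the log2(FPKM + 1) scale (x axis) for 25 named genes (y axis), with the value over 8 against 8 libraries and its 95% interval in black and the value of each set as an open symbol. CD86 in Kasumi-1 at 72 h, at -0.87, is the point farthest from 0, and the intervals of KIT, KDM1B, CD34 and PI16 span 0.

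Set by set, the compounds differed past the threshold in Kasumi-1 at 72 h alone, and no difference between lines or times passed it. The counts were 0 of 11888 genes (0.0%) in Kasumi-1 at 24 h, 0 of 11889 (0.0%) in SKNO-1 at 24 h and 0 of 11889 (0.0%) in SKNO-1 at 72 h. At an unadjusted p under 0.05 they were 86, 613 and 120 genes, with 839 in Kasumi-1 at 72 h. With a block for replicate number, which the main fits lack, 3 genes were called in Kasumi-1 at 72 h, 2 higher with RN-1 and 1 lower. In that fit 1666 genes of the set had an unadjusted p under 0.05 by limma. Without RN-1 replicate 1, the library that stood apart, that set had 0 calls and 165 genes under 0.05 unadjusted. Without RN-1 replicate 2, which leaves replicate 1 alone, it had 92 calls, 36 higher with RN-1 and 56 lower, on the assumption that the lone library varies like the other groups. A dependence of the difference between compounds on line passed the threshold in 0 of 11885 genes (0.0%, 359 at an unadjusted p under 0.05 by limma), and one on time also in 0 (0.0%, 408 genes), which does not show that there was none. On the log2(FPKM + 1) scale, the interval of the difference lay within 2-fold for 11704 to 11775 genes in each set. That scale understates the fold of genes near or below 1 FPKM.

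Many genes had RN-1 and GSK690 libraries that did not overlap within a set, as 2 against 2 libraries often will: 22.9% in Kasumi-1 at 24 h, 33.4% at 72 h, 28.8% in SKNO-1 at 24 h and 18.0% at 72 h. Only 11 of 11871 genes (0.0927%) did so in all 4 sets in the same direction, and they are named here after their values were seen. In 7 of them GSK690 lay above RN-1. These were CD86, TRIM34, CYB5B, SPOPL, SLC18B1, SGPL1 and TMSB4X. In the other 4, SPR, PLA2G12A, MTSS1L and WWOX, RN-1 lay above GSK690.

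The order of the compounds in these 11 genes followed the direction of the response to inhibition. Over the 4 sets, 2693 genes (22.7%) rose and 3334 (28.1%) fell in the average of RN-1 and GSK690 over that of DMSO and GSK690*, a contrast that weighs the 2 compounds equally. Of the 7 genes higher with GSK690, 6 had risen and SPOPL had not changed past the threshold (-0.08, adjusted p = 0.110). All 4 genes higher with RN-1 had fallen. SLC18B1, a vesicular polyamine transporter, had means of 4.03 FPKM with RN-1, 4.85 with GSK690 and 1.70 in the controls. SGPL1, the lyase that degrades sphingosine 1-phosphate, had 6.01, 6.79 and 3.64. TMSB4X, which binds actin monomers, had 714, 780 and 596. On the other side MTSS1L, a membrane-bending protein, had means of 9.55, 7.96 and 13.0 FPKM, and SPR, sepiapterin reductase of tetrahydrobiopterin synthesis, 11.6, 9.62 and 13.3. In each of these 5 genes the GSK690 mean lay farther from the controls than the RN-1 mean. This follows from the order for which they were chosen and the direction of their response, so it adds no separate support. None passed the threshold in the direct comparison.

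Over all responsive genes, those that rose were more often higher with GSK690 than all tested genes were, though not when each compound was read against its own control. The order was less regular for genes that fell. In each set, genes were taken that rose or fell by that contrast within the set: 1152 and 1327 in Kasumi-1 at 24 h, 1547 and 1505 at 72 h, 671 and 409 in SKNO-1 at 24 h, and 821 and 495 at 72 h (9.69%, 11.2%, 13.0%, 12.7%, 5.64%, 3.44%, 6.91% and 4.16% of the genes tested). Among genes that rose, the share higher with GSK690 was 61.4%, 52.8%, 76.3% and 73.2% in the 4 sets in that order. Over all tested genes it was 46.5%, 39.9%, 58.3% and 47.4%. The median difference over the genes that rose was -0.020, -0.011, -0.11 and -0.063. Among those that rose 2-fold or more (77, 173, 86 and 122 genes) it was -0.056, -0.083, -0.23 and -0.14. Genes that fell had median differences of 0.023, 0.059, -0.033 and 0.057, where a positive value is a smaller fall with RN-1. Over all tested genes the medians were 0.0053, 0.040, -0.028 and 0.0052 in the 4 sets. In SKNO-1 at 24 h the median of genes that fell was near that of all genes. Among genes that fell, the share higher with GSK690 was 34.8%, 36.3%, 61.1% and 26.3% in the 4 sets. It was near the share of all tested genes in Kasumi-1 at 72 h and SKNO-1 at 24 h. Leaving out 1 library turned the sign in 3 of the 4 sets. For genes that rose this held in SKNO-1 at 24 h (0.039 with GSK690 replicate 1 left out, 0.030 with RN-1 replicate 2 left out) and in Kasumi-1 at 72 h (0.0097 with GSK690 replicate 2 left out, and also above 0 with RN-1 replicate 2 left out). For genes that fell it held in SKNO-1 at 24 h (0.027 with RN-1 replicate 1 left out, 0.053 with GSK690 replicate 2 left out) and in Kasumi-1 at 24 h (-0.014 with RN-1 replicate 1 left out, -0.011 with GSK690 replicate 2 left out).

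Averaged over the genes that rose in its set, each library gave 1 value above its 4 controls. In Kasumi-1 at 24 h these were 0.49 and 0.52 with RN-1 and 0.51 and 0.54 with GSK690, and at 72 h 0.58 and 0.55 against 0.57 and 0.60. In SKNO-1 at 24 h they were 0.72 and 0.43 with RN-1 and 0.83 and 0.53 with GSK690, and at 72 h 0.61 and 0.67 against 0.69 and 0.73. Only SKNO-1 at 72 h had no overlap, and the spread between replicates in SKNO-1 at 24 h was larger than the gap between compounds. In SKNO-1 at 72 h, RN-1 replicate 1 has another library-name prefix than RN-1 replicate 2 and both GSK690 libraries. The DMSO replicates, split by prefix in the same way, stood at -0.13 and 0.033. The part of the prefix in these values was not tested. Within a replicate number the GSK690 library was the higher in 7 of 8 pairs, by 0.055 ± 0.043 (mean and SD of 8 pairs). The exception was replicate 1 of Kasumi-1 at 72 h. For genes that rose 2-fold or more it was the higher in 8 of 8 pairs, by 0.13 ± 0.083. Over genes that fell it was the lower in 7 of 8 pairs, by a mean of -0.027 ± 0.037, which is smaller than its own spread.

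**Figure D3:**
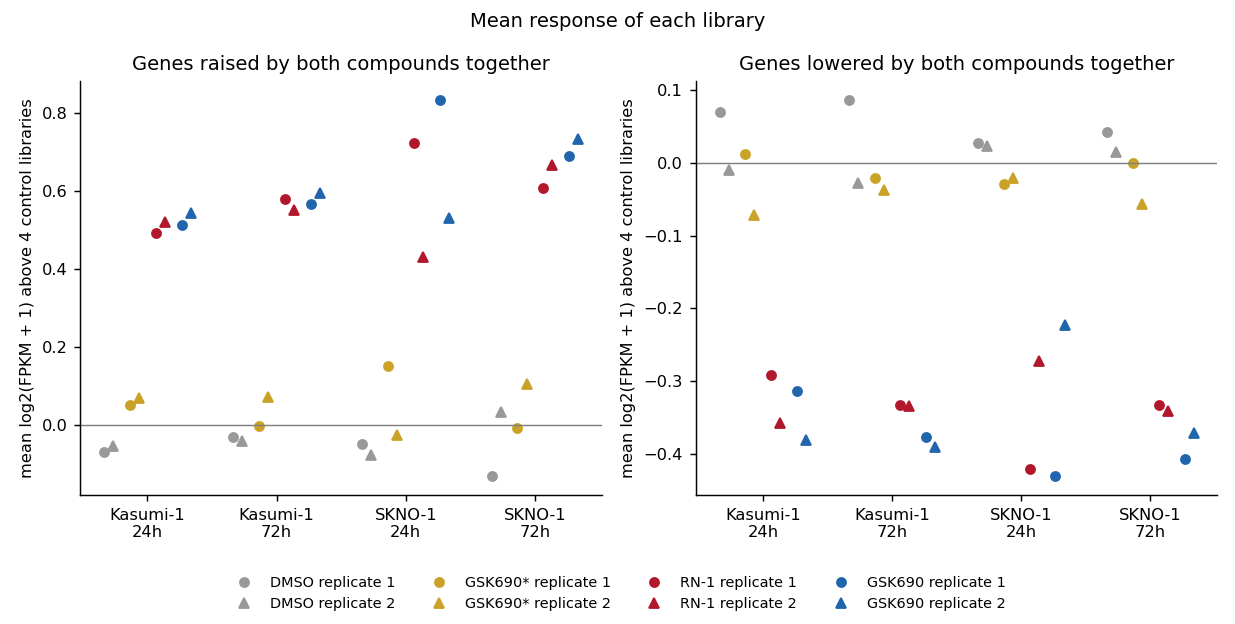
Mean log2(FPKM + 1) above the 4 control libraries of the set (y axis) for each library by set (x axis), over genes that rose (left) or fell (right) in both inhibitors together, with circles for replicate 1 and triangles for replicate 2. GSK690 and RN-1 libraries lie close, at 0.49 to 0.54 on the left in Kasumi-1 at 24 h, and GSK690* libraries lie a little above DMSO libraries on the left.

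Over rising genes, the order of the compounds reversed when each was read against its own control. In the same genes as above, the median of RN-1 minus DMSO was 0.47, 0.49, 0.51 and 0.54 in the 4 sets, and that of GSK690 minus GSK690* was 0.39, 0.44, 0.49 and 0.53. GSK690* itself lay above DMSO by a median of 0.12, 0.059, 0.12 and 0.088 in these genes, and above it in 8 of 8 pairs of libraries. Over falling genes the medians were -0.34, -0.32, -0.35 and -0.33 with RN-1 and -0.30, -0.33, -0.28 and -0.33 with GSK690, with the larger fall for RN-1 at 24 h in both lines and nearly equal medians at 72 h. Over rising genes, the order thus turned where each compound was read against a different control. For any gene, a control shared by both compounds cancels and leaves the direct difference, whether it is DMSO or the isomer. No gene of 11882 (0.0%) had a difference between the 2 own-control responses past the threshold, and 125 genes had an unadjusted p under 0.05. For CD86 this difference was -0.40 and for FCRLA -0.48, both of the same sign as the direct one, whereas it was 0.0058 for LY96, 0.11 for GPR65 and 0.45 for LYZ, of the other sign, and adjusted p was 1.00 for each of the 5.

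Read against their own controls, which they do not share, RN-1 and GSK690 moved the genes called with both in the same direction, while the share of calls in common differed between sets. RN-1 raised 650 and lowered 429 genes in Kasumi-1 at 24 h (5.47% and 3.61%), and GSK690 299 and 169 (2.52% and 1.42%). At 72 h the counts were 885 and 548 with RN-1 (7.44% and 4.61%) and 716 and 443 with GSK690 (6.02% and 3.73%). In SKNO-1 they were 216 and 51 (1.82% and 0.429%) against 181 and 13 (1.52% and 0.109%) at 24 h, and 349 and 63 (2.94% and 0.53%) against 301 and 36 (2.53% and 0.303%) at 72 h. Genes called with both numbered 386, 770, 146 and 255, and each of them moved in 1 direction. They made up 35.8%, 53.7%, 54.7% and 61.9% of the RN-1 calls and 82.5%, 66.4%, 75.3% and 75.7% of the GSK690 calls. Of the RN-1 calls, 1068 of 1079, 1420 of 1433, 265 of 267 and 410 of 412 had the same sign with GSK690. Across genes, the responses to the 2 compounds correlated at r = 0.814, 0.829, 0.810 and 0.852, given as a description since genes are not independent and each pair of contrasts shares its set.

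**Figure D4:**
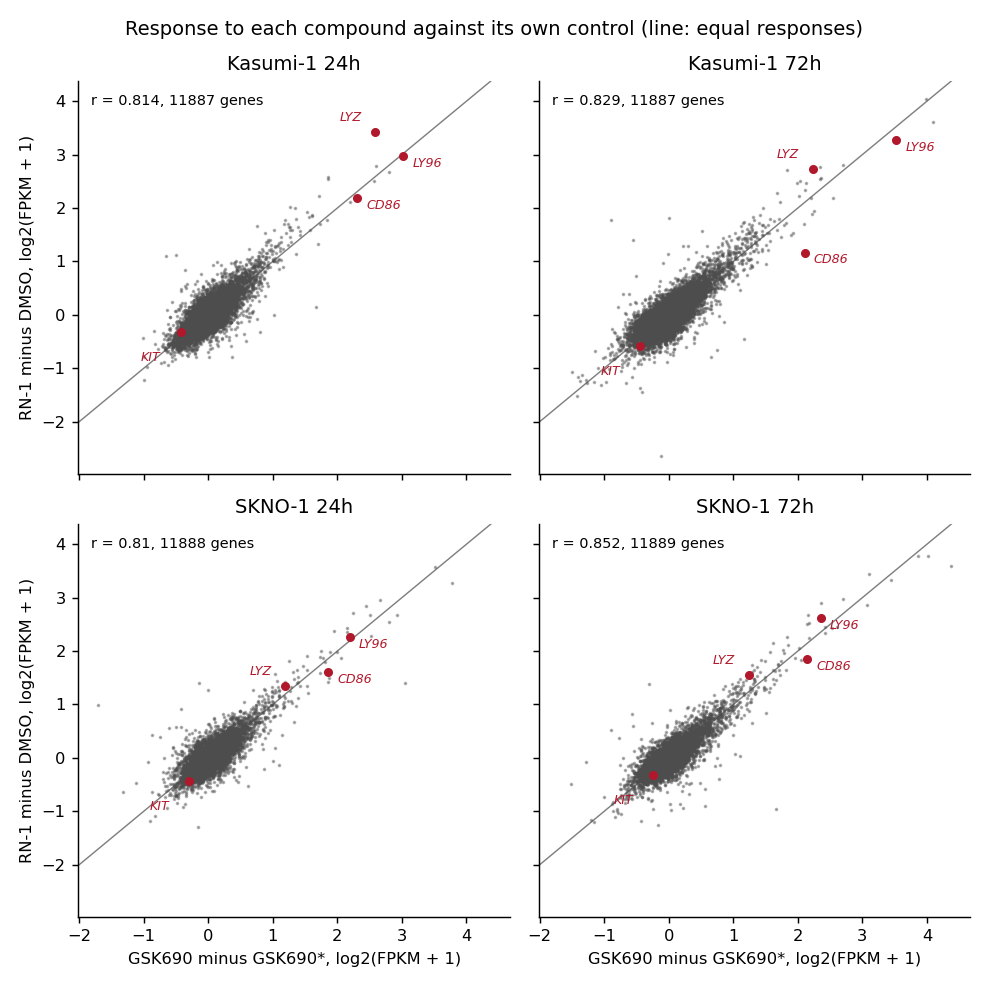
RN-1 minus DMSO (y axis) against GSK690 minus GSK690* (x axis), both on the log2(FPKM + 1) scale, with 1 point per gene and 1 panel per set, and the line of equal responses. Points lie along the line with r of 0.810 to 0.852, and CD86 in Kasumi-1 at 72 h lies below it, at 1.16 with RN-1 and 2.11 with GSK690.

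By gene group, 38 lists were read, and no member of any list passed the threshold in the direct comparison. Over the 36 lists with at least 5 tested genes, the median difference ran from -0.15 to 0.21, beside 0.0049 over all tested genes. In the counts that follow, rises and falls are against each compound's own control over the 4 sets, where 16.3% of all tested genes rose and 18.4% fell with RN-1, and 14.0% rose and 15.7% fell with GSK690. Of 22 monocyte and macrophage markers, 17 rose and 2 fell with RN-1, and 17 rose and 1 fell with GSK690. The median direct difference was -0.063, with 16 of 22 higher with GSK690. FCGR2B, an inhibitory IgG receptor, had means of 12.2 FPKM with RN-1, 15.5 with GSK690 and 0.530 in the controls, and a direct difference of -0.23 (interval -0.64 to 0.18).

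The list with the lowest median, -0.15, was that of NF-kB and inflammatory cytokines, in which 11 of 13 genes rose and 1 fell with each compound and 12 of 13 were higher with GSK690. TNF had means of 3.31 FPKM with RN-1 and 3.90 with GSK690 and a difference of -0.22 (interval -0.70 to 0.25). NFKBIZ, a nuclear regulator of NF-kB, had 7.64 and 8.82 FPKM and a difference of -0.15 (interval -0.40 to 0.09). Of the 11 clustered and replication histones, 6 rose with RN-1 and 7 with GSK690, and of 16 p53 targets 7 rose with each, while 1 fell with RN-1. The p53 target TNFRSF10B, a death receptor for TRAIL, rose by 1.65 with RN-1 and 1.41 with GSK690 and had a direct difference of -0.16 (interval -0.45 to 0.13).

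Antigen presentation and interferon lists had members that rose with each compound and none that fell, and their direct medians were near 0. The counts of rises below differ between compounds, but no member had a difference between the own-control responses past the threshold. Of 38 interferon-stimulated genes, 15 rose with RN-1 and 9 with GSK690, and the direct median was 0.00091 with 19 higher with each compound. IRF1, a transcription factor of this response, rose by 0.90 with RN-1 and 0.72 with GSK690, with 32.5 and 32.7 FPKM and a direct difference of -0.02 (interval -0.23 to 0.19). Of 17 class I presentation genes, 12 and 11 rose, with a direct median of 0.0078. Of 9 class II presentation genes, 5 rose with RN-1 and 2 with GSK690, with a direct median of -0.0017. CTSS, the cathepsin that trims the class II invariant chain, rose by 1.02 and 0.84 and was 1 of the 7 genes that GSK690* raised over DMSO. Its direct order was the opposite, with means of 52.2 FPKM with RN-1 and 57.1 with GSK690. The direct difference was -0.13 (interval -0.24 to -0.027).

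Lists with many falls had medians a little above 0 in the direct comparison. Of 36 DNA replication and proliferation genes, 31 fell with RN-1 and 28 with GSK690, and the direct median was 0.029. By set it was 0.029 and 0.14 in Kasumi-1 at 24 h and 72 h, and -0.077 and 0.0070 in SKNO-1. Over all tested genes the set medians were 0.0053, 0.040, -0.028 and 0.0052 in the same order. MCM4, a subunit of the replicative helicase, fell by 0.46 with RN-1, fell by 0.41 with GSK690 and differed by 0.02 (interval -0.13 to 0.16). Of 25 MYC and ribosome biogenesis genes, 15 fell with RN-1 and 20 with GSK690 (direct median 0.049, 20 of 25 higher with RN-1). Of 23 cholesterol synthesis and uptake genes, 15 and 17 fell (direct median 0.028, 21 of 23 higher with RN-1). In the same order of sets, the medians were 0.048, 0.10, -0.011 and 0.068 for the MYC list. They were 0.0077, 0.11, -0.057 and 0.082 for the cholesterol list. The list with the highest median, 0.21, was the metallothioneins, of whose 10 listed genes 5 were tested. Of these, 1 fell with RN-1, a share near that of all genes, and 2 with GSK690. MT2A, a metal-binding protein, fell by 0.86 with RN-1, fell by 0.94 with GSK690 and differed by 0.22 (interval -0.05 to 0.48).

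Lists of other functions had the following counts. Of 22 myeloid cytokine receptors 11 rose with each, while 2 fell with RN-1 and 1 with GSK690, and the direct median was -0.046. CSF1R, the receptor of the macrophage growth factor M-CSF, rose by 0.91 with RN-1 and 0.77 with GSK690, with means of 4.78 and 4.54 FPKM and a direct difference of 0.07 (interval -0.12 to 0.25). Of 17 myeloid transcription factors, 8 rose and 3 fell with each. ID3, an inhibitor of helix-loop-helix factors, had means of 8.41 FPKM with RN-1 and 8.64 with GSK690 and a direct difference of 0.04 (interval -0.24 to 0.31). Of 24 lysosome and phagocytosis genes, 12 rose and 2 fell with RN-1, and 9 rose and 0 fell with GSK690 (direct median -0.024). Of 16 iron and heme genes, 8 fell and 2 rose with RN-1, and 10 fell and 1 rose with GSK690. In the direct comparison 12 of 16 were higher with RN-1 (direct median 0.050). NFS1, which supplies sulfur for iron-sulfur clusters, had means of 9.22 and 7.83 FPKM beside 12.3 in the controls and a direct difference of 0.22 (interval -0.0093 to 0.45). Of 8 neutrophil granule genes, 2 fell with each, a share near that of all genes, and CTSG, cathepsin G, had means of 49.8 and 45.8 FPKM beside 74.4 in the controls.

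Lists of other demethylases, amine oxidases and stress responses gave no called member either. These are RNA levels, and whether either compound acts on enzymes other than KDM1A was not tested. Of the 16 JmjC demethylases, which need iron and not flavin, 1 was higher with RN-1 and 15 with GSK690, at a median of -0.027. By set the median was -0.015 and -0.093 in Kasumi-1 at 24 h and 72 h, and 0.028 and 0.0015 in SKNO-1. The 5 flavin amine oxidases tested had a median of -0.049, the 16 NRF2 oxidative stress genes 0.037, and the 9 genes of AHR and xenobiotic metabolism -0.010. The 20 ATF4 genes of amino acid stress had 0.025 and the 13 heat shock chaperones 0.011. In each of these 6 lists the 95% interval of every tested gene lay within 1.5-fold in either direction on the log2(FPKM + 1) scale. The widest bounds were -0.39 and 0.51. Changes of genes near or below 1 FPKM are understated on that scale.

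**Figure D5:**
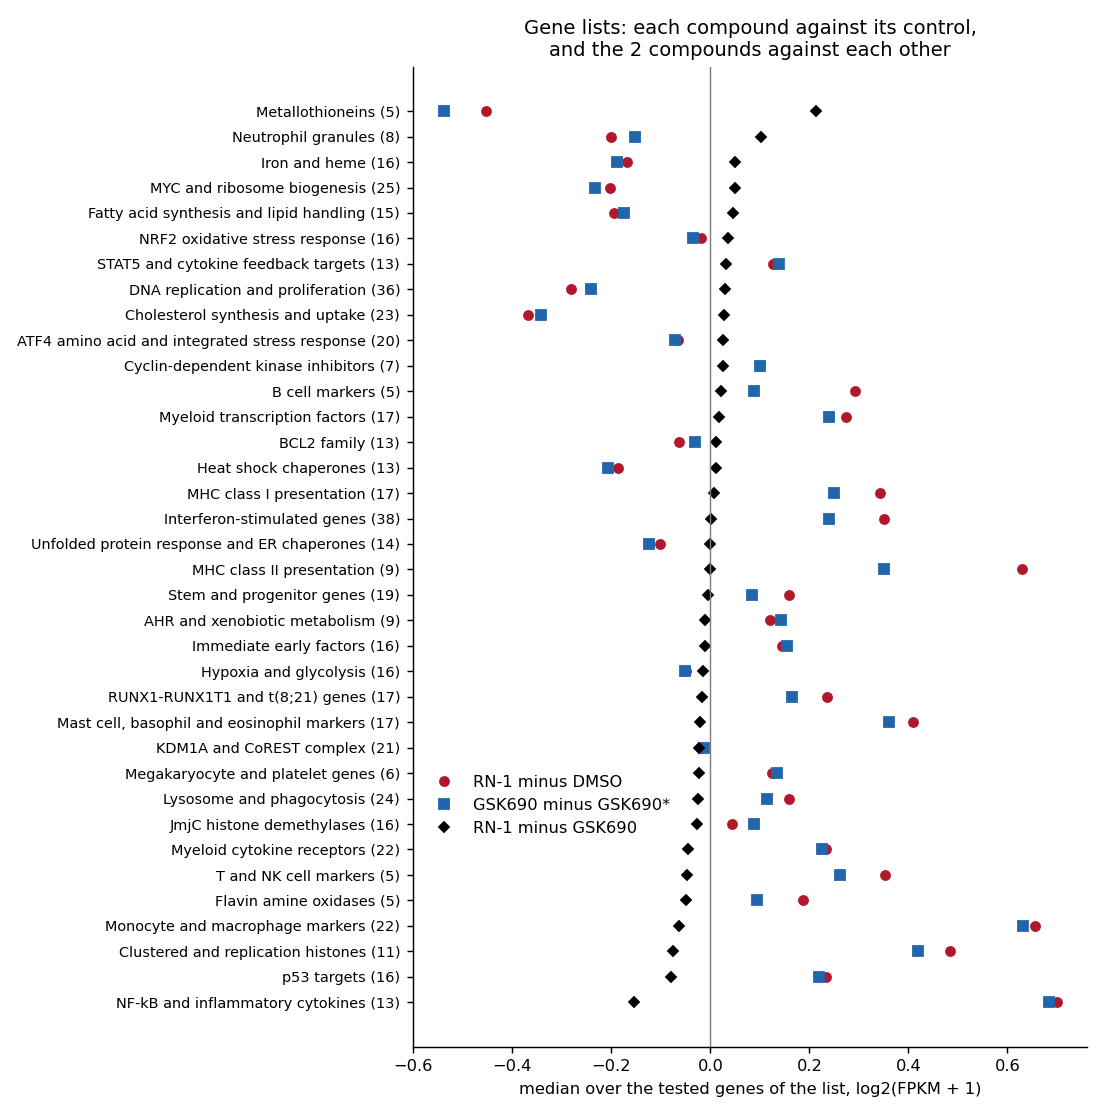
Median over the tested genes of each list (number in brackets) on the log2(FPKM + 1) scale (x axis), for RN-1 minus DMSO, GSK690 minus GSK690* and RN-1 minus GSK690, with lists ordered by the last. The 2 own-control medians lie close in most lists, such as 0.66 and 0.63 for monocyte and macrophage markers, and the direct medians run from -0.15 to 0.21.

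The summed markers of other cell types overlapped between the compounds. Monocyte and macrophage markers summed to 106 to 205 FPKM per library with RN-1 and 123 to 218 with GSK690, with CD14 under 1 FPKM in all 16 libraries. Neutrophil markers summed to 1500 to 7570 and 1310 to 8070 FPKM. GZMA, a granule protease of cytotoxic lymphocytes, was on the longer T and NK list and had means of 4.90 FPKM with RN-1 and 6.23 with GSK690 beside 0.146 in the controls. The defining T and NK markers summed to at most 4.76 FPKM and B cell markers to at most 4.51, with CD3D, CD3E, CD2, MS4A1 and PAX5 under 1 FPKM throughout, and the adherent cell markers COL1A1, COL1A2 and KRT18 were under 1 FPKM. EPCAM, an epithelial adhesion molecule and the other adherent cell marker summed, lay at 63.9 to 81.4 FPKM in the 8 Kasumi-1 inhibitor libraries and at no more than 0.15 in the 8 of SKNO-1, and the summed list reached 81.4 FPKM with RN-1 and 75.9 with GSK690. Mast cell, basophil and eosinophil markers summed to at most 43.8 FPKM with RN-1 and 56.8 with GSK690, and megakaryocyte markers to at most 47.8 and 46.1. In bulk RNA, fewer cells of a type and less RNA per cell cannot be told apart.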

How the data were processed

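The authors deposited FPKM values per gene and library for 23073 genes. TopHat 1.4.1, Cufflinks and hg19 are named per the submitters' processing notes, with no role or order, and the annotation release and library type are not given in the sources used here. RNA was taken with Trizol or RNeasy Plus, per the labels. Of these genes, 30 lack a value in some libraries and were left missing there. No column of any other sample was used.

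Genes at 1 FPKM or more in at least 2 of the 32 libraries were kept (11890). The fit was limma's linear model with a variance trend on log2(FPKM + 1) (limma 3.58.1, under R 4.3.3), and p was adjusted by Benjamini-Hochberg over all tested genes, 2-sided, with a threshold of 0.05. The 8 against 8 comparison used the 16 RN-1 and GSK690 libraries with set as a block (11 residual and 5.57 prior degrees of freedom). Set contrasts, interactions and own-control responses used 16 group means on all 32 libraries (16 residual and 5.23 prior degrees of freedom). Intervals are at 95% and unadjusted. The fit was tested on simulated data. Plots were drawn with matplotlib 3.10.9 and tables made with pandas 2.3.3 and numpy 2.4.6, in Python 3.11.15.

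The labels call the replicates biological and do not say what a replicate number shares. RN-1 and GSK690 libraries of the same number deviated together from their group means in all 4 sets (r = 0.285 to 0.452, over 0.1 in each). The numbers were therefore used to pair libraries in the descriptions. The main fits have no replicate block, so their intervals and p do not use this pairing. A fit with a replicate block was an alternative.

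Genes were named where called over the 4 sets (0) or in a set without overlap (CD86), and, since fewer than 6 were called, for the 10 smallest p. Followed whatever their values were KDM1A, KDM1B, MAOA, MAOB, RCOR1, HMG20B, GFI1, GFI1B, SPI1, CEBPA, ITGAM, CD86, LYZ, LY96, KCTD12, PI16, MS4A4A, CD34 and KIT. The examples of each list are the members with the largest mean response, or were chosen after their values were seen. The comparison, the genes followed and the lists were chosen with earlier results of these data known. Other settings were a pseudocount of 0.1, no filter, quantile normalization, median-of-ratios scaling, other ways to pool the spread, the library-name prefix in SKNO-1 at 72 h, each set or inhibitor library left out, and each compound against its own control. FPKM keeps no counts, so the depth is unknown and no counting interval was computed.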

Additional observations from a re-analysis of the deposited data

How the results depend on the processing

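The comparison over the 4 sets had 0 calls in every fit run except with the spread from 16 group means on all 32 libraries, which called 2 genes, CD86 and FCRLA. In Kasumi-1 at 72 h, with 1 call, the count was 0 with a pseudocount of 0.1, 0 with quantile normalization and 0 with 8 group means on 16 libraries, 5 with no filter on low values, and 0 to 92 with 1 library left out. The replicate block gave 3 calls there and changed no other call. With no filter, Kasumi-1 at 24 h had 9 calls, SKNO-1 at 24 h 4 and SKNO-1 at 72 h 3, since genes under 1 FPKM then enter. Kasumi-1 at 24 h had 1 call with a pseudocount of 0.1, and SKNO-1 at 24 h had 0 to 1 with 1 library left out (1 without GSK690 replicate 2). The tests of line and time had 0 calls in every alternative run, and a term for the library-name prefix gave 0 in SKNO-1 at 72 h.

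The median over rising genes in SKNO-1 at 24 h, -0.11, ran from -0.23 to 0.039 with 1 library left out, so its sign rests on having both replicates of each compound. It was -0.12 with a pseudocount of 0.1, -0.088 with quantile normalization and -0.088 with median of ratios. In Kasumi-1 at 24 h it ran from -0.034 to -0.011 (-0.024 with a pseudocount of 0.1, -0.026 with quantile normalization, -0.025 with median of ratios), in SKNO-1 at 72 h from -0.089 to -0.036 (-0.071 with a pseudocount of 0.1), and in Kasumi-1 at 72 h from -0.026 to 0.0097 (-0.052 with median of ratios). Over falling genes the ranges were -0.014 to 0.058 in Kasumi-1 at 24 h (0.015 with quantile normalization), 0.045 to 0.059 at 72 h (0.020 with quantile normalization, 0.018 with median of ratios), -0.12 to 0.053 in SKNO-1 at 24 h and 0.035 to 0.067 at 72 h.

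Among the genes followed whatever their values or named for a small p, signs turned in uncalled ones, most of them near 0 in the direct comparison. They also turned in LY96, GPR65 and LYZ, whose direct intervals excluded 0. With 1 library left out the ranges were -0.076 to 0.099 for CD34, -0.035 to 0.055 for KIT, -0.043 to 0.020 for KDM1B, -0.055 to 0.022 for KDM1A, -0.15 to 0.23 for CEBPA, -0.037 to 0.095 for PI16, -0.41 to 0.11 for GFI1B and -0.0093 to 0.13 for HMG20B. Quantile normalization gave -0.023 for CD34 and -0.0095 for KIT, and a pseudocount of 0.1 gave -0.014 for PI16. Against its own control each compound gave 0.094 for GFI1, 0.11 for GPR65, -0.066 for KIT, 0.0058 for LY96, 0.45 for LYZ and 0.0030 for MS4A4A. Without a set, KIT was -0.0088 (Kasumi-1 at 24 h) and -0.035 (SKNO-1 at 72 h), CEBPA -0.13 and RCOR1 0.0037 (SKNO-1 at 24 h), and KDM1A 0.022 (SKNO-1 at 72 h). The cause was not tested. Groups of 2 libraries and unknown depth limit what a single set can show.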
